A study of Mus musculus with 2 samples.

Results

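C-type lectin receptors are cell-surface proteins of macrophages and other leukocytes, and 10 of their genes were followed here in LPS-treated and untreated macrophages: Clec4a2, Clec4d, Clec4e, Clec4n, Clec5a, Clec7a, Clec10a, Clec12a, Mrc1 and Cd69. The members were taken as every probe set that the annotation of the Mouse Genome 430 2.0 array assigns to exactly 1 gene, that gene being one of the 10. This gave 12 probe sets of 9 genes, out of 34945 probe sets of 18193 genes in the whole series. Clec12a, which encodes an inhibitory receptor, had no such probe set in that annotation, so its signal was not analysed here.

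The cells were bone-marrow-derived macrophages of C57BL6 mice, grown in RPMI medium with serum and macrophage colony-stimulating factor (M-CSF). One group was treated with lipopolysaccharide (LPS), the Gram-negative cell wall component sensed by Toll-like receptor 4, and the other was left untreated. Each group had 1 array, so the spread between replicates is unknown and no p-value was computed. Every difference below describes these 2 arrays alone. The labels used here give no dose, no treatment time, no age or sex, and do not say whether animals were pooled.

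C-type lectin receptors carry a lectin or lectin-like domain outside the cell, with which several of them bind sugars or lipids of fungi and bacteria. Activating members signal through an immunoreceptor tyrosine-based activation motif (ITAM), either in the partner chains Fcer1g or Tyrobp or in their own tail, to the kinase Syk and the adaptor complex of Card9, Bcl10 and Malt1, which leads to NF-kB. Inhibitory members carry a tyrosine-based inhibition motif that recruits the phosphatases Ptpn6 and Ptpn11, and a further group takes up glycoproteins for degradation.

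The receptor genes did not move together. Of the 9 genes with a probe set, Cd69, Clec4e and Clec5a had an LPS signal 2-fold or more above the control signal, Clec7a and Clec10a one 2-fold or more below it, and Clec4a2, Clec4d, Clec4n and Mrc1 lay within 2-fold. These 3 of 9 higher genes stand beside 8.22% of the 11722 measured genes that were higher by this size, and the 2 of 9 lower genes beside 26.2% that were lower by it. After the ratios were centred on their median, the shares of all measured genes were 13.1% higher and 15.3% lower, while the receptor counts stayed at 3 and 2. The median log2 ratio (LPS over control) of the 9 receptor genes was 0.08, against -0.42 for all measured genes, and it turned to -0.05 under quantile normalization.

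Values are MAS5 signals, the array software's linear brightness of a probe set. A signal was called low when it lay under the floor, the median of all non-control probe sets of its array, which was 26.7 on the LPS array and 35.1 on the control array. All 12 probe sets of the receptor genes reached the floor on both arrays, so every fold of a receptor gene is a ratio of 2 signals above their floors. For other genes, a fold with 1 signal under its floor is computed against that floor and given as "at least". A gene counted as measured when its brightest probe set was not under the floor of both arrays. Folds are read within a probe set. Signals of different genes, which also depend on their probes, are set together only in ranges of like brightness and in sums over marker lists. Shares of a brightness range with a ratio as high or as low as that of a gene count the gene itself where it lies in that range.

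**Figure D1:**
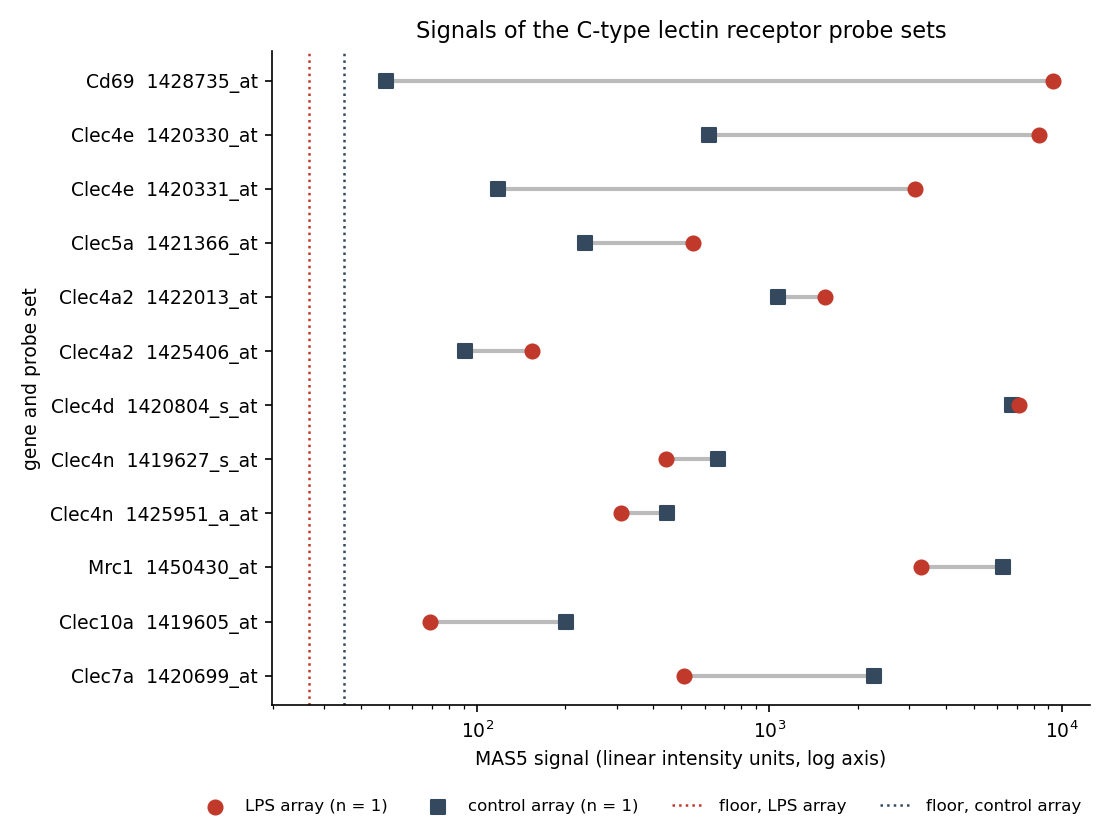
MAS5 signal (log axis) of each of the 12 probe sets on the LPS array (circles) and on the control array (squares), with 1 array a group and the floor of each array as a dotted line. Both Clec4e probe sets and the Cd69 probe set have the LPS signal far to the right of the control signal, Clec7a and Clec10a have it to the left, and the symbols of Clec4d overlap.

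Clec4e encodes Mincle, the receptor for the mycobacterial glycolipid cord factor, which signals through the Fcer1g chain. It was much brighter on the LPS array, with a signal of 8321 there and 620 on the control array by its brighter probe set, a 13.4-fold difference (log2 ratio 3.75). The other Clec4e probe set gave 3149 on the LPS array and 118 on the control array, a 26.7-fold difference (log2 ratio 4.74). Both probe sets had the same direction, and their log2 ratios had an SD of 0.70, which is wider than the median SD of 0.28 over 4494 genes with 2 or more probe sets above both floors. Probe sets of 1 gene share the RNA sample and are no replicates, so this spread gauges the probes only. Of 786 measured genes with a mean log2 signal of 11 to 14, 0.636% had a ratio as high as that of Clec4e or higher, and 12.8% were at least 2-fold higher.

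Clec4d encodes MCL, which pairs with Mincle and shares its Fcer1g chain and its glycolipid ligand. Its signal was 7143 on the LPS array and 6739 on the control array, a log2 ratio of 0.08 that turned to -0.05 under quantile normalization. Clec4d thus differed little between the arrays while its partner gene differed by over 3 on the log2 scale. Both Clec4d signals were very bright: 1.29% of measured genes were as bright on the LPS array and 0.964% on the control array. Whether signals this bright understate a difference was not tested. The Clec4d probe set is of the s type, whose probes can match transcripts of more than 1 gene.

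Clec4n encodes Dectin-2, which binds mannans of fungi and also couples to Fcer1g. Its brighter probe set had a signal of 442 on the LPS array and 664 on the control array, a log2 ratio of -0.59. The other had 310 on the LPS array and 445 on the control array, a log2 ratio of -0.52. Both probe sets therefore read a difference of about the same size, within 2-fold and close to the shift of all measured genes. The brighter one, like the Clec4d probe set, is of the s type, whose probes can match transcripts of more than 1 gene. The 2439 measured genes with a mean log2 signal of 9 to 11 had a median of -0.23, and the brighter Clec4n probe set differed from it by -0.36 on the log2 scale. That probe set, at a mean of 9.08, lies at the edge of this range, and the other, at 8.54, lies below it. The range of 7 to 9 had a median of -0.61, close to both Clec4n ratios.

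Clec4a3, Clec4b1, Clec4a2, Clec4n, Clec4d and Clec4e lie in this order among the protein-coding genes of chromosome 6, in the Dectin-2 cluster, and were measured here. Clec4a1, Clec4a4 and Clec4b2 of the same cluster were not analysed here. From Clec4a3 to Clec4e the log2 ratios were -0.28, -1.21, 0.53, -0.59, 0.08 and 3.75. Clec4e, at one end of the cluster, was thus the only one of these 6 genes higher by 2-fold or more, and Clec4b1 the only one lower by 2-fold or more, with a signal of 116 on the LPS array and 267 on the control array. The neighbours Clec4d and Clec4e differed from each other by far more than the probe sets of Clec4e did.

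**Figure D2:**
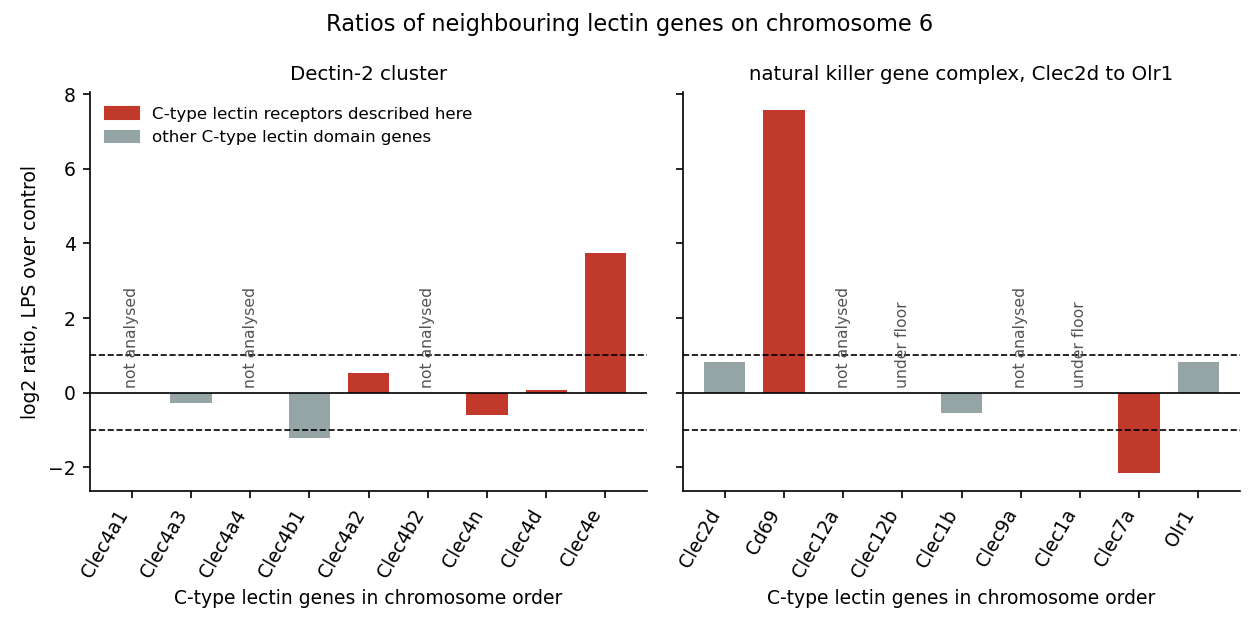
Log2 ratio, LPS over control, of C-type lectin genes in their order on chromosome 6, in the Dectin-2 cluster (left) and in the stretch of the natural killer gene complex between Clec2d and Olr1 (right), with dashed lines at 2-fold. Clec4e at 3.75 stands beside Clec4d at 0.08, and Cd69 at 7.57 and Clec7a at -2.16 lie in the same stretch. Genes under the floor on both arrays or not analysed have no bar. The bar of Olr1 is a lower bound, since its control signal is under the floor.

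The promoters of Clec4e and Clec4d are shown because these neighbouring partner genes had such different ratios. They run from 250 bases before to 50 bases after the annotated start (RefSeq, GRCm38.p6). The Clec4e window is at chr6:123289822-123290121 on the minus strand, and the Clec4d window at chr6:123261857-123262156 on the plus strand. Capitals mark matches, on both strands, to 5 motifs: NF-kB, C/EBP (TTNNGNAA), an interferon-response-like motif (GAAA, any 2 bases and GAAA), the PU.1 core (GAGGAAG) and AP-1 (TGANTCA).
Clec4e: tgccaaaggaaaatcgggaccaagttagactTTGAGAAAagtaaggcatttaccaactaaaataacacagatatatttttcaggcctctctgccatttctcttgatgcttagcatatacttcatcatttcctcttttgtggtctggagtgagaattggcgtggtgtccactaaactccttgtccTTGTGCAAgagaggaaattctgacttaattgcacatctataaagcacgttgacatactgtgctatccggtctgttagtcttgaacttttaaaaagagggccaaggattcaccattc
Clec4d: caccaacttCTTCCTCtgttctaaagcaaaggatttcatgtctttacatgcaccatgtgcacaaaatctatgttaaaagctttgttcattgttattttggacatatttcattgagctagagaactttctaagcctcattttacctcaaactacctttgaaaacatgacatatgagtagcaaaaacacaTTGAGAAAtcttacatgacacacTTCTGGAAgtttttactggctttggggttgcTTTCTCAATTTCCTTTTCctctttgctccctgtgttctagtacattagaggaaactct
The Clec4e window held 2 C/EBP matches, at 219 and 66 bases before the start, and no match to the other 4 motifs. The Clec4d window held 3 C/EBP matches, 1 PU.1 core match and 1 interferon-response-like match that directly follows the last C/EBP match. Of all 32851 windows in the promoter table, 40.7% held a C/EBP match, 13.6% a PU.1 core, 8.46% an NF-kB, 7.81% an AP-1 and 3.44% an interferon-response-like match. A match is a run of letters, not a shown binding site.

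Clec5a encodes MDL-1, a receptor of myeloid cells that signals through the Tyrobp chain (also called DAP12). Its signal was 548 on the LPS array and 233 on the control array, a 2.35-fold difference (log2 ratio 1.23). Its single probe set stayed past 2-fold under 5 other scalings and with 16 added to every signal in place of the floor, from 2.27-fold to 3.48-fold. The other alternatives that keep the threshold could not change its ratio, since this probe set lies above every floor used. Of the 3898 measured genes with a mean log2 signal of 7 to 9, 6.75% had a ratio as high or higher, 7.88% were past 2-fold on the higher side and 33.4% on the lower side.

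Clec7a encodes Dectin-1, the receptor for beta-glucans of fungal cell walls, which carries its activation motif in its own tail. It was the receptor gene with the lowest ratio, with a signal of 510 on the LPS array and 2277 on the control array, 4.46-fold lower on the LPS array (log2 ratio -2.16). In all 11 alternatives it remained past 2-fold, from 3.34-fold to 4.47-fold lower. Of the 2439 measured genes with a mean log2 signal of 9 to 11, 3.40% had a ratio as low or lower, and 17.8% were at least 2-fold lower. Clec5a and Clec7a, both activating receptors that lead to Syk, thus stood on opposite sides.

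The promoters of Clec5a and Clec7a are shown as a pair with opposite ratios. The windows are chr6:40585756-40586055 for Clec5a and chr6:129472730-129473029 for Clec7a, both on the minus strand of GRCm38.p6 (RefSeq), with the same motifs in capitals.
Clec5a: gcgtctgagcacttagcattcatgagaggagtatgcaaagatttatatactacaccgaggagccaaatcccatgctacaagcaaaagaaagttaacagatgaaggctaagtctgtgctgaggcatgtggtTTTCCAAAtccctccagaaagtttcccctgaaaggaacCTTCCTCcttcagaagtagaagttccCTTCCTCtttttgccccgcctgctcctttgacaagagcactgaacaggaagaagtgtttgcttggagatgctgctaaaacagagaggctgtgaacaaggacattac
Clec7a: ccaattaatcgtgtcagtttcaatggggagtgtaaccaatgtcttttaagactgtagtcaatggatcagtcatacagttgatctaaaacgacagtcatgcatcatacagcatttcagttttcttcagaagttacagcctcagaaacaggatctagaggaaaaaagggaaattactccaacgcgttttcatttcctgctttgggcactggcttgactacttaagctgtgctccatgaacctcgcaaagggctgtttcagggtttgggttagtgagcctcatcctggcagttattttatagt
The Clec5a window held 2 PU.1 core matches, at 82 and 56 bases before the start, and 1 C/EBP match at 120 bases before it. The Clec7a window held none of the 5 motifs, and neither did its other window in the table, whose start lies 6 bases away. Of the 10 genes, 7 had a promoter in the table, among them Clec12a, which has no ratio here. Cd69, Clec10a and Clec4n had none. A C/EBP match was found for 6 of the 7 genes with a promoter and a PU.1 core match for 4, both counts with Clec12a. An AP-1 match was found for 2, again with Clec12a, an interferon-response-like match for 1 and an NF-kB match for 0. Among all 32851 windows the shares were 40.7%, 13.6%, 7.81%, 3.44% and 8.46% in this order, counted per window and not per gene. The window of Mrc1, whose log2 ratio was -0.93, held 2 PU.1 core matches and 2 overlapping C/EBP matches. Whether matches go with the direction of a ratio was not tested. No match says only that these letters are not in these windows.

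Clec4a2 encodes DCIR, an inhibitory receptor with a tyrosine-based inhibition motif in its tail. Its signals were 1546 on the LPS array and 1073 on the control array by the brighter probe set (log2 ratio 0.53), and 154 on the LPS array and 90.6 on the control array by the other (log2 ratio 0.76). Both probe sets read a higher LPS signal within 2-fold. A further probe set, which the annotation assigns to Clec4a2 and Clec4b1 together and which is therefore no member, had 1793 on the LPS array and 1259 on the control array, a log2 ratio of 0.51. The probe set of Clec4b1 alone, at -1.21, had the opposite direction.

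Of 2 receptors that take up glycoproteins, Clec10a was past 2-fold on the lower side and Mrc1 was not. Clec10a encodes MGL1, which binds galactose and N-acetylgalactosamine, and it had a signal of 69.2 on the LPS array and 202 on the control array, 2.92-fold lower on the LPS array (log2 ratio -1.54). This was a dim probe set in a range where lower ratios were common: 34.5% of the 3417 measured genes with a mean log2 signal of 5 to 7 were past 2-fold on the lower side and 4.80% on the higher side, and 17.5% had a ratio as low as that of Clec10a or lower. Under quantile normalization and loess it came within 2-fold, at -0.96 and -0.77 on the log2 scale.

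Mrc1 encodes the mannose receptor (CD206), a marker of macrophages activated by interleukin-4. Its signal was 3302 on the LPS array and 6294 on the control array, 1.91-fold lower on the LPS array (log2 ratio -0.93), and quantile normalization put it past 2-fold at -1.09. Few genes so bright had lower ratios: of the 786 measured genes with a mean log2 signal of 11 to 14, 5.73% had a ratio as low or lower, and 4.96% were at least 2-fold lower. Set against the median of its own brightness range, Mrc1 differed by -0.85 and Clec10a by -0.94 on the log2 scale, so by this measure the 2 lectins stood closer together than their ratios alone read. By the share of the range with a ratio as low or lower they stood apart, at 5.73% for Mrc1 and 17.5% for Clec10a.

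Cd69 encodes a lectin-like membrane protein known as an early marker of leukocyte activation, which holds back the receptor for sphingosine-1-phosphate. Its ratio ranked 3 among the 11722 measured genes, counted from the highest, with genes under 1 floor placed at their bound. The rank therefore depends on the floor. Cd69 had a signal of 9295 on the LPS array and 48.8 on the control array, a 191-fold difference (log2 ratio 7.57) read by 1 probe set. The control signal was 1.39 times the floor, so the size of this fold rests on a dim value, and a floor at the 65th percentile, above the control signal, made it at least 103-fold. Of the 2439 measured genes with a mean log2 signal of 9 to 11, Cd69 had the highest ratio, and the 0.0410% with a ratio as high is Cd69 itself. On the higher side, 15.1% were past 2-fold. Its neighbour in the natural killer gene complex, Clec2d, which encodes a ligand of natural killer cell receptors, had 652 on the LPS array and 370 on the control array, a log2 ratio of 0.82.

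Because Cd69 is best known from lymphocytes, markers of other cell types were read on the same arrays. Of 11 T cell markers with a probe set, 4 reached the floor on the LPS array and 3 on the control array, and Cd3d, Cd3e, Cd3g, Cd4, Cd8b1, Cd5 and Themis were under it on both. The summed signal of these markers was 506 on the LPS array and 2699 on the control array. Most of the control sum came from Cd28 (signals of 72.0 on the LPS array and 2197 on the control array). Zap70 had 218 on the LPS array and 325 on the control array, above both floors. Cd8a, also above both, had 44.3 on the LPS array and 70.3 on the control array. Cd247 had 76.9 on the LPS array and 18.1, under the floor, on the control array. Of 6 natural killer cell markers, 1 reached the floor on the LPS array and 0 on the control array, with sums of 70 on the LPS array and 97 on the control array. The B cell (7 markers), dendritic cell (8) and neutrophil (7) lists had 2, 3 and 3 genes at or above the floor on the LPS array and 2 each on the control array. Their sums were 152, 234 and 345 on the LPS array and 254, 219 and 549 on the control array. Of the neutrophil sums, 183 on the LPS array and 435 on the control array came from Mmp8. Of 8 mast cell and basophil markers, Cpa3, Mcpt4, Mcpt8, Tpsb2, Fcer1a and Ms4a2 were under the floor on both arrays, and the sums were 1004 on the LPS array and 96 on the control array, with 861 of the LPS sum from Hdc, the histamine-forming enzyme. All 9 macrophage markers with a probe set reached the floor on both arrays, with sums of 50824 on the LPS array and 43621 on the control array, so markers of the labelled cell type were present. In RNA from whole cultures, fewer cells that express a gene and less RNA per cell cannot be told apart.

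**Figure D3:**
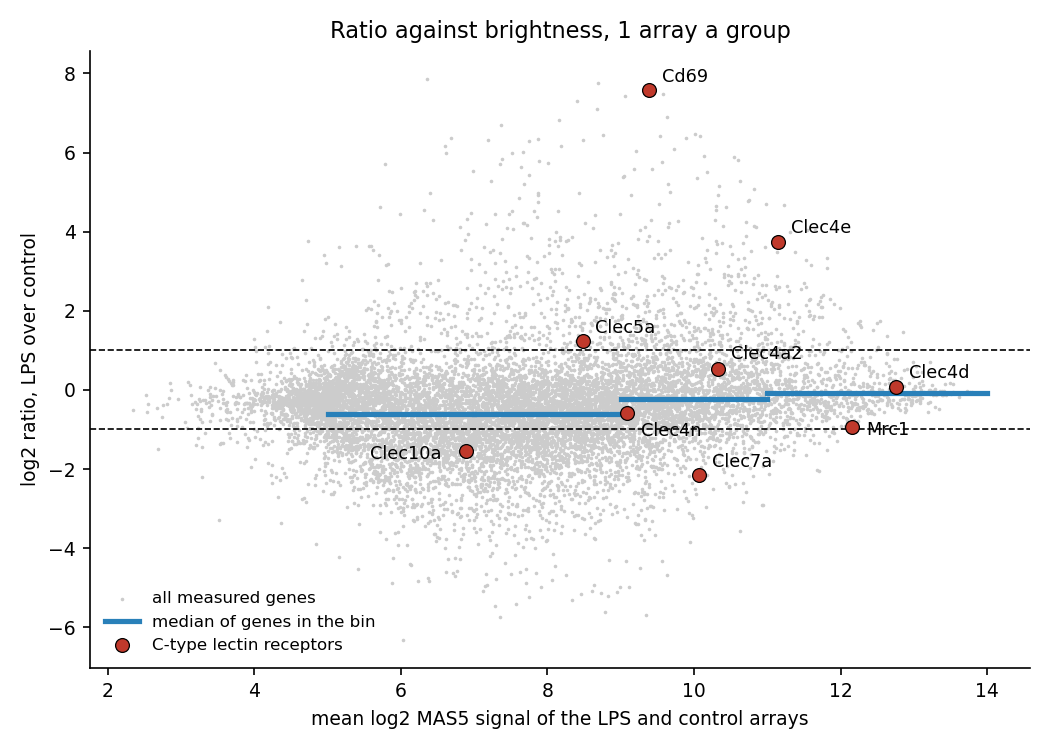
Log2 ratio, LPS over control, of all 11722 measured genes (grey) and of the 9 receptor genes (red) against the mean log2 signal of both arrays, with the median of each brightness bin as a blue line and dashed lines at 2-fold. The bin medians are -0.61 for mean log2 signals of 5 to 7 and of 7 to 9, -0.23 for 9 to 11 and -0.08 for 11 to 14. Cd69 and Clec4e stand at the upper edge of the genes of like brightness, and Clec7a and Mrc1 near the lower edge.

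Since the median ratio of all measured genes was below 0, the receptor genes were read under 5 other scalings. Clec4e lay between 3.79 and 4.17 and Clec7a between -2.12 and -1.74 on the log2 scale. Clec4d was the only one of the 9 genes that changed sign in any of them. Clec4a2 reached 0.95 and Clec4n -0.17 after median centring, both still within 2-fold.

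**Figure D4:**
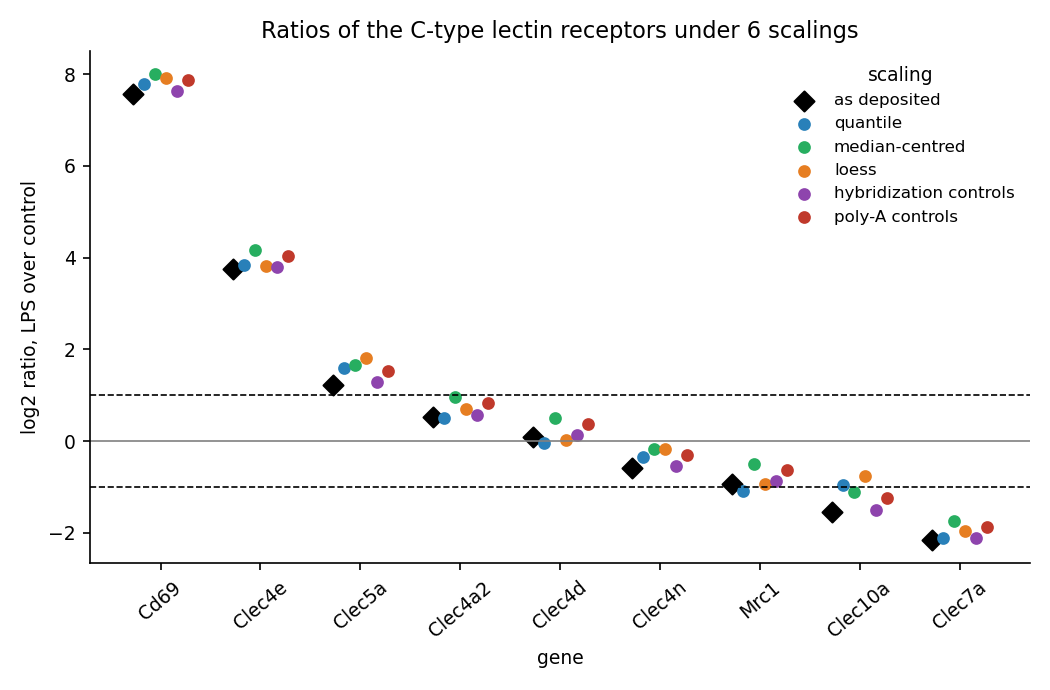
Log2 ratio, LPS over control, of the 9 receptor genes as deposited (black diamonds) and under 5 other scalings (circles), with dashed lines at 2-fold and 1 array a group. Cd69, Clec4e and Clec5a stay above the upper line and Clec7a below the lower one, while Clec10a and Mrc1 lie on either side of the lower line, depending on the scaling.

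The signals of the chains that the activating receptors depend on differed little between the arrays. Fcer1g, the partner of Mincle, MCL and Dectin-2, had a signal of 10142 on the LPS array and 9892 on the control array. Tyrobp, the partner of MDL-1, had 7857 on the LPS array and 9591 on the control array (log2 ratio -0.29). On both arrays these chains were the brightest of the receptor-proximal signalling genes described below. Whether signals this bright understate a difference was not tested. Syk, the kinase that binds these chains, was 2.65-fold higher on the LPS array, with 3369 there and 1273 on the control array.

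Of 26 measured genes of receptor-proximal signalling, 5 were higher by 2-fold or more and 8 lower (6 and 5 after median centring), with a median log2 ratio of -0.41, close to that of all measured genes. For this and the lists that follow, the shares of all measured genes were 8.22% higher and 26.2% lower (13.1% and 15.3% after median centring), and the lower count of this list was near that share. Malt1, the protease of the Card9 complex, was 19.2-fold higher, with 3873 on the LPS array and 202 on the control array, whereas its partner Bcl10 had 1660 on the LPS array and 1680 on the control array. Src, a kinase that phosphorylates activation motifs, was at least 9.23-fold higher. Inpp5d, the lipid phosphatase SHIP-1 that restrains such receptors, was 11.6-fold lower, with 96.1 on the LPS array and 1118 on the control array. Vav2 was 9.03-fold lower, a size that rests on a dim LPS signal, 1.19 times the floor. The phosphatase genes Ptpn6 and Ptpn11, which inhibitory receptors such as DCIR recruit, had log2 ratios of 0.24 and 0.16. Card9 and Lyn were not analysed here.

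Of 12 measured transcription factors that act on such receptor genes or in macrophages at large, 7 were at least 2-fold higher and 2 lower (9 and 1 after median centring), with a median of 1.12, against -0.42 for all measured genes. Members of the C/EBP family parted ways. Cebpd was 10.2-fold higher, with 5261 on the LPS array and 517 on the control array, and Cebpb was 4.50-fold higher, with 8200 on the LPS array and 1824 on the control array. Cebpa was 27.2-fold lower, with 30.0 on the LPS array and 817 on the control array. Its LPS signal was 1.13 times the floor, so the size of this fold rests on a dim value. Rel, an NF-kB subunit, was 6.60-fold higher. Stat6, the transcription factor of interleukin-4 signalling, was 2.45-fold lower.

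Genes that Mincle and Dectin-1 are known to induce were mostly higher, but LPS induces many of them as well. Of 13 measured, 10 were at least 2-fold higher and 1 lower (11 and 1 after median centring), with a median of 3.82. Il6 was at least 233-fold, Il1b 180-fold, Ptgs2 at least 82.3-fold and Tnf 68.3-fold higher, and Egr3 was at least 5.65-fold lower. The control signal of Il1b was dim, 1.62 times the floor. Csf2 and Il23a were under the floor on both arrays.

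Of 15 measured genes associated with interleukin-4, the setting in which Mrc1 and Clec10a are best known, 6 were at least 2-fold higher and 3 lower (7 and 2 after median centring), with a median of 0.30. The chemokine gene Ccl22 was at least 78.7-fold higher and Ccl17 at least 11.5-fold. Socs1, an inhibitor of cytokine signalling, was at least 21.7-fold higher. Pparg, a nuclear receptor gene, was at least 9.89-fold lower. Arg1, Retnla and Mgl2, the last a close relative of Clec10a, were under the floor on both arrays. Of the 6 higher genes, Ccl22, Ccl17, Ccl24 and Socs1 had a control signal under the floor, so their ratios are bounds. With only the 8 genes above both floors, 2 were higher and 1 lower, and the median was -0.09. The 2 higher ones were Il4ra, which encodes a chain of the interleukin-4 receptor, at 9.33-fold, and Tgm2 at 4.30-fold. The lower one was Klf4, at 2.71-fold.

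Among the other genes with a C-type lectin domain, most were dim. Of 55 with a probe set, 29 were under the floor on both arrays and 26 were measured. Of these 26, 3 were at least 2-fold higher and 5 lower (7 and 3 after median centring), with a median of 0.00. All 3 higher genes had a control signal under the floor, so their ratios are bounds. With only the 11 genes above both floors, 0 were higher and 4 lower, and the median was -0.41. The activating receptor gene Klrk1, whose product is NKG2D, had 197 on the LPS array and 17.6, under the floor, on the control array and was at least 5.61-fold higher. Klra2, of the Ly49 family, was at least 3.49-fold higher. Thbd, the thrombin-binding anticoagulant protein thrombomodulin, was 7.10-fold lower, and Clec2i was at least 6.72-fold lower. All 9 receptor genes with a probe set reached both floors, but they were chosen with the results of these arrays known.

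**Figure D5:**
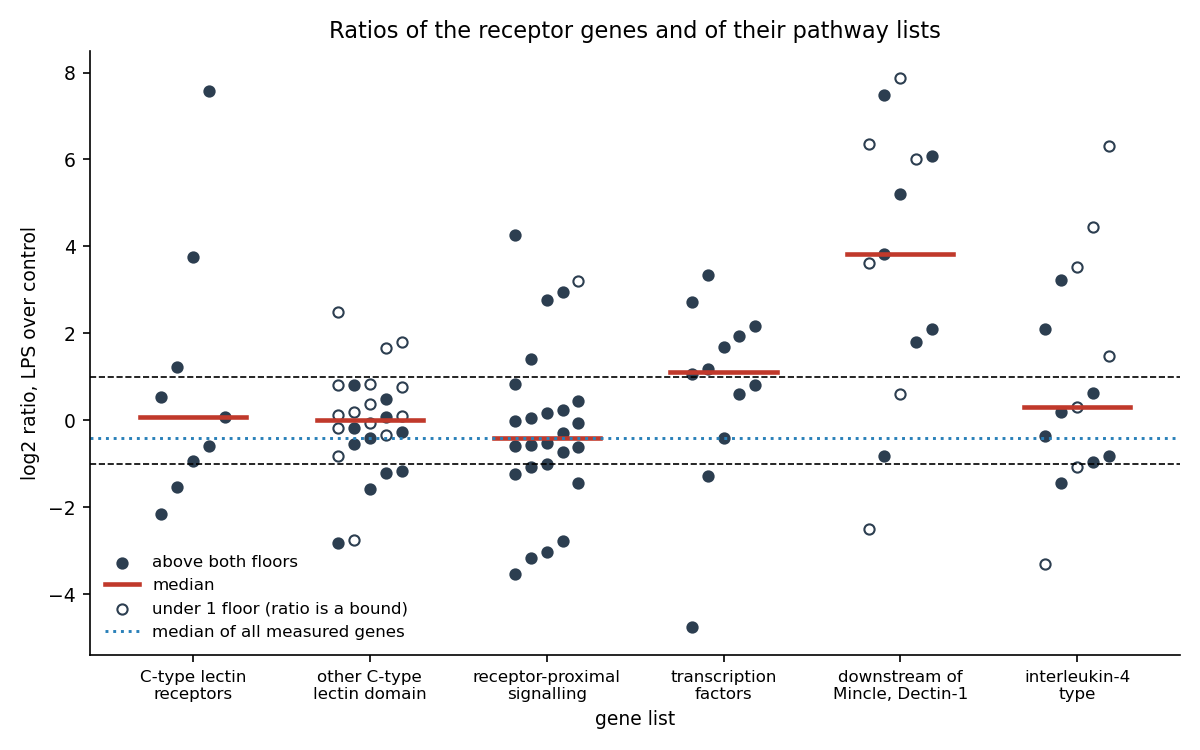
Log2 ratio, LPS over control, of each measured gene in 6 lists, with filled circles for genes above both floors and open circles for genes under 1 floor, whose ratio is a bound. Red lines are list medians with such genes at their bound, the dotted line is the median of all measured genes (-0.42) and dashed lines mark 2-fold. The 9 receptor genes spread from -2.16 to 7.57 around a median of 0.08, and the signalling list has a median of -0.41.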

How the data were processed

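The study measured total RNA of LPS-treated and untreated bone-marrow-derived macrophages on 2 Affymetrix Mouse Genome 430 2.0 arrays, 1 a group, assigned by title. The intensity values deposited by the authors are linear signals; per the submitters' processing notes the tool was MAS5. Its version and scaling target, and any detection calls, were not stated there. The number of arrays limits the precision.

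Of 45101 probe sets, 64 were array controls. Of the other 45037, the platform annotation (2016) gave 34945 with 1 gene, 932 with several and 9160 with none, and only the first were named. All 9 receptor genes matched RefSeq by gene identifier. Signals under the floor (50th percentile of the array) were set to it, and folds then read "at least". The ratio is log2 LPS minus log2 control of the gene's brightest probe set, counted at 2-fold, with no test. Named genes were all members and, per pathway list, up to 4 measured genes with the largest ratios and the 1 largest against the median. Others were added after their values were seen: Syk, the partner chains, Bcl10, Ptpn6, Ptpn11, Stat6, Clec4a3, Clec4b1, Clec2d, Ccl24, Il4ra, Tgm2, Klf4, Cd28, Zap70, Cd8a, Cd247, Mmp8 and Hdc. Members, lists and alternatives were chosen with earlier results of these data known. Motifs were searched in RefSeq promoters; the planned protein motifs were not analysed here. Steps were tested on simulated arrays without a shift and with a shift equal for all genes, unlike these data, where it varied with brightness. With the shift, the check covered the rescaled ratios only, not those as deposited. Python 3.11.15, pandas 2.3.3 and statsmodels 0.14.6 were used.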

Additional observations from a re-analysis of the deposited data

How the results depend on the processing

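With 1 array a group, no alternative adds replicate error, and depth is limited by brightness: Cd69 was dim on the control array and Clec10a on the LPS array. No paired analysis was possible because each group has 1 array. All 9 receptor genes kept their direction in every alternative that gave a value, except Clec4d, which turned to -0.05 under quantile normalization. Moving the floor, or keeping only genes above both floors, changed none of these ratios except that of Cd69. Clec4d and Clec4n gave no value with plain probe sets alone. The cause of a moved value was not tested unless the setting itself shows it. An alternative was counted as moved when a count or share changed by more than 1.5 times or a median by 0.28 or more on the log2 scale: 67 summary values moved and 181 did not.

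For the C-type lectin receptors, the number at least 2-fold lower was 1 under loess, 1 at a 3-fold and 4 at a 1.5-fold threshold, and the median was 0.51 after median centring, 0.37 with poly-A controls and 0.53 with plain probe sets. The share of all measured genes past the threshold, higher, was 13.1% after median centring, 13.8% under loess, 5.22% at 3-fold and 13.0% at 1.5-fold. Lower, it was 15.6% under quantile normalization, 15.3% after median centring, 12.8% under loess, 12.2% at 3-fold and 42.0% at 1.5-fold.

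For the other lectin domain genes, the number higher was 8 and 1 with floors at the 35th and 65th percentiles, 5 with a pseudocount of 16, 0 with only genes above both floors, and 7 under quantile normalization, median centring, loess, poly-A scaling and a 1.5-fold threshold. The number lower was 3 after median centring, loess, poly-A scaling and at 3-fold. Their median was -0.41 with a 65th-percentile floor and with genes above both floors, 0.47 with the pseudocount, 0.35 under quantile normalization, 0.43 after median centring and 0.29 under loess and poly-A scaling.

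For receptor-proximal signalling, the number lower was 5 under quantile normalization, median centring and poly-A scaling and 4 under loess and at 3-fold, and the median was 0.01 after median centring, -0.07 under loess and -0.12 under poly-A scaling. For the transcription factors, 1 was lower after median centring and at 3-fold, and the median was 1.55 after median centring and 1.41 under poly-A scaling.

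For the genes induced downstream of Mincle and Dectin-1, the median was 4.25 with a 35th-percentile floor, 4.56 with the pseudocount and under loess, 4.12 under quantile normalization, 4.24 after median centring and 4.11 under poly-A scaling. With genes above both floors 6 were higher and 0 lower, and at 1.5-fold 2 were lower. For the interleukin-4 list, 2 were higher, 1 was lower and the median was -0.09 with genes above both floors. Its median was 0.78 under quantile normalization, 0.72 after median centring, 0.95 under loess and 0.59 under poly-A scaling, 3 were higher with plain probe sets, and 1, 1 and 5 were lower under loess, at 3-fold and at 1.5-fold.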
